A study of Homo sapiens with 6 samples.

Results

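Human chromosome 19 carries the largest group of zinc finger genes in the genome, most of them arranged in tandem clusters. The 149 genes described here are the protein-coding ZNF genes of that chromosome that were expressed in SW480, a line of human colorectal cancer cells. They were chosen by annotation and level: a symbol starting with ZNF, a position on chromosome 19 in GENCODE 29 (GRCh38), no readthrough symbol, and a mean of at least 0.5 FPKM (fragments per kilobase of transcript, scaled to the size of the library) over the 6 libraries. Of 246 annotated genes of this kind, 216 were listed in at least 1 library, 67 of these fell below the limit, and 149 (60.6%) were kept among 12756 tested genes in all. The other 30 genes were not analysed here. Since the level chose the members, their level is a description and not a finding. Just inside the limit were ZNF461 (mean 0.512 FPKM) and ZNF530 (0.527 FPKM), and just outside were ZNF14 (0.459 FPKM) and ZNF575 (0.481 FPKM).

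The cells had been infected with lentivirus carrying a short hairpin RNA in the pLKO.1 vector and selected with puromycin, and no sample was an uninfected culture. The groups were a nontargeting hairpin (shNT) and the hairpins shPcyt2-1 and shPcyt2-2 against PCYT2, the enzyme that makes CDP-ethanolamine for phosphatidylethanolamine synthesis, with 2 libraries each. Nothing in the labels says whether these came from separate cultures, so the p-values measure only the spread between libraries, which may be technical. The study sought genes downstream of PCYT2. The files hold no read counts, so the depth is unknown, and 2 libraries per group limit the precision of every value.

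PCYT2 itself was at 11.6 and 13.8 FPKM with shNT, 7.11 and 7.36 FPKM with shPcyt2-1 and 6.71 and 6.18 FPKM with shPcyt2-2. Each knockdown library was lower than either control. On the log2(FPKM + 1) scale PCYT2 changed by -0.73 with shPcyt2-1 (SE 0.10, limma adjusted p = 0.00205) and by -0.88 with shPcyt2-2 (SE 0.10, limma adjusted p = 0.00261). All 8 colorectal epithelial markers on the fixed list were listed, and KRT8 was the most abundant of them. Their summed level was 8210 and 8770 FPKM with shNT, 8430 and 8530 FPKM with shPcyt2-1, and 6260 and 6560 FPKM with shPcyt2-2. KRT8, KRT18 and KRT19 made up almost all of this sum and fell with shPcyt2-2, by 0.41, 0.45 and 0.44 on the log2 scale (limma adjusted p = 0.00483, 0.00319 and 0.00546), calls that were lost without shPcyt2-2 replicate 1 (up to 0.081, 0.0721 and 0.0685 over all settings). EPCAM, CDH1, VIL1 and CDX1 had values of 0.11, 0.19, 0.14 and 0.28 with shPcyt2-2, which did not pass. CDX2, an intestinal transcription factor, was at 16.2 ± 0.968 FPKM with shNT, 9.94 ± 0.0936 FPKM with shPcyt2-1 and 15.6 ± 0.672 FPKM with shPcyt2-2 (SD, n = 2). The shPcyt2-1 libraries were lowest. It fell with shPcyt2-1 by 0.65 (SE 0.081, limma adjusted p = 0.00138) and was higher with shPcyt2-2 than with shPcyt2-1 by 0.60 (SE 0.081, limma adjusted p = 0.00113). Of 8 markers of other cell types, 6 were listed and 2 reached the limit, and their sum was 6.8 and 4.84 FPKM with shNT, 8.48 and 8.06 FPKM with shPcyt2-1, and 6.31 and 6.38 FPKM with shPcyt2-2, so that both shPcyt2-1 libraries were highest. ALB, a liver marker and the most abundant of these, was at 5.56 and 3.52 FPKM with shNT, 7.19 and 6.27 FPKM with shPcyt2-1, and 4.48 and 4.45 FPKM with shPcyt2-2. It was called higher with shPcyt2-1 (0.50, SE 0.16, limma adjusted p = 0.0448) and lower with shPcyt2-2 than with shPcyt2-1 (-0.50, SE 0.16, limma adjusted p = 0.0459). These ALB calls held under 7 and 9 of 17 alternative settings, and the first was lost on leaving out any library but shNT replicate 1 (limma adjusted p of up to 0.23 over all settings). COL1A1, the other of these markers to reach the limit, was highest with shPcyt2-2. Its level was 1.08 and 1.03 FPKM with shNT, 1.16 and 1.5 FPKM with shPcyt2-1, and 1.53 and 1.68 FPKM with shPcyt2-2. It did not pass in any comparison. The leukocyte marker PTPRC and the fibroblast marker COL3A1 had no row. In these bulk samples, fewer cells that express a gene and less RNA per cell cannot be told apart, and the part of these marker changes in the results that follow was not tested.

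Most zinc finger proteins of this chromosome carry a string of DNA-binding fingers and, at their other end, a KRAB box. The KRAB box binds TRIM28, which brings histone methyltransferases, deacetylases and heterochromatin proteins to the bound DNA, and many of these proteins are known for silencing retrotransposons. The genes arose by repeated duplication, so neighbors within a cluster often have related sequences. A pattern for the start of the KRAB box was found in the translated coding sequence of 118 of the 149 members (79.2%), against 74 of 195 expressed ZNF genes of other chromosomes (37.9%). A degenerate box would be missed by such a pattern, and the other 31 members are described as lacking the pattern. The median number of finger patterns was 12, between 0 in ZNF738 and 31 in ZNF91.

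The promoters are shown because they show what the members share before any change is described. A RefSeq promoter sequence was found for 131 of the 149 members (build GRCh38.p14). In the 250 bases before the start, an ETS core (CCGGAAG on either strand) was present in 28.2% of the members, in 29.2% of the ZNF genes of other chromosomes and in 11.8% of all 15843 protein-coding genes with a sequence. The corresponding shares were 64.9%, 64.0% and 56.0% for the SP core GGGCGG, and 45.0%, 40.4% and 34.5% for CCAAT, the core bound by NF-Y. They were 6.87%, 6.21% and 2.88% for ACTACAA, part of the ZNF143 site, 6.11%, 2.48% and 3.35% for AAGATGG, the YY1 core, and 0.763%, 3.73% and 1.48% for the palindromic core of the NRF1 site. Among the 14 such promoters of members higher with shPcyt2-1, the shares were 14.3% for the ETS core, 64.3% for SP and 35.7% for CCAAT. No difference between these lists was tested. The list of all protein-coding genes was not limited by level, unlike the members and the ZNF genes of other chromosomes. Both strands were searched, none of these motifs contains another, and a match describes the sequence only. The sequences below are the 120 bases before the start of the 2 members with the largest rise with shPcyt2-1, and of the 1 member that fell with it, whose windows hold no annotated exon. Capitals mark the motif matches.
ZNF460 (chr19:57279862-57279981, plus strand): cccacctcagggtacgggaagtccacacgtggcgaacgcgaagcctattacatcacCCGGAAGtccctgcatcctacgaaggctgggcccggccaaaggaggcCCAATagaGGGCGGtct
ZNF761 (chr19:53431864-53431983, plus strand): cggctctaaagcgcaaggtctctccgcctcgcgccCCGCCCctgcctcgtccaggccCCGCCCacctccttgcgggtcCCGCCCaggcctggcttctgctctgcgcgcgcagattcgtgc
ZNF787 (chr19:56121296-56121415, minus strand): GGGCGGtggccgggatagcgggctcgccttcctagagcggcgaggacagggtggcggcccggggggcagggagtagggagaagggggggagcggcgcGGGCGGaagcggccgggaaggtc
ZNF460 held 1 match to each of the ETS, CCAAT and SP cores. ZNF761 held 3 SP matches and ZNF787 held 2, and neither held an ETS or CCAAT match in this window. All 3 windows were rich in G and C, at 62.5%, 73.3% and 77.5%.

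The members were expressed at low levels. Their median level was 1.63 FPKM (quartiles 0.9 and 3.35 FPKM), against 7.16 FPKM for all tested genes, and 121 of them were below 5 FPKM. None was at 0 in any library. The members with the KRAB pattern had a median of 1.34 FPKM and a median transcript GC content of 42.1%. Those without it had a median of 6.7 FPKM and 59.6% GC. All 8 members at 20 FPKM or more lacked the pattern: ZNF581, ZNF787, ZNF580, ZNF358, ZNF146, ZNF524, ZNF428 and ZNF444. As a result the 31 members without the pattern held 511.0 of 722.9 summed FPKM in the first shNT library and 559.0 of 756.8 in the second.

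With shPcyt2-1, most members had small positive values, and few of them passed the test. The median of the 149 log2 fold changes on the log2(FPKM + 1) scale was 0.18, against 0.067 for all tested genes, and 123 of 149 (82.6%) were positive, against 7631 of 12756 genes (59.8%). Without the pseudocount, the median ratio of group means was 1.25 for the members and 1.06 for all tested genes, since the log2(FPKM + 1) scale understates the change of low genes. In 87 members both shPcyt2-1 libraries lay above both shNT libraries (58.4%, background 43.3% of all tested genes), in 16 both lay below (10.7%, background 25.6%), and in 46 the groups overlapped. Of single members, 18 were higher (background 16.5%) and 4 were lower (background 10.1%) at a limma adjusted p under 0.05, in all 14.8% of the members against a background of 26.7% of all tested genes. Among tested genes with a mean under 5 FPKM the background was 19.3%. The share of members called was thus below the background, while their median lay above that of all tested genes, a difference that was not tested. These counts depended on single libraries: 2 members were called when shNT replicate 2 was left out, 3 when shPcyt2-1 replicate 1 was and 7 when shPcyt2-1 replicate 2 was. With median-ratio scaling of the libraries the split was 11 higher and 7 lower, the median was 0.14 and the median of all tested genes was -0.0028. With the trend on GC content and length removed from each library, the median of the members was 0.097, against 0.062 for all tested genes, and 112 members were positive.

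**Figure D1:**
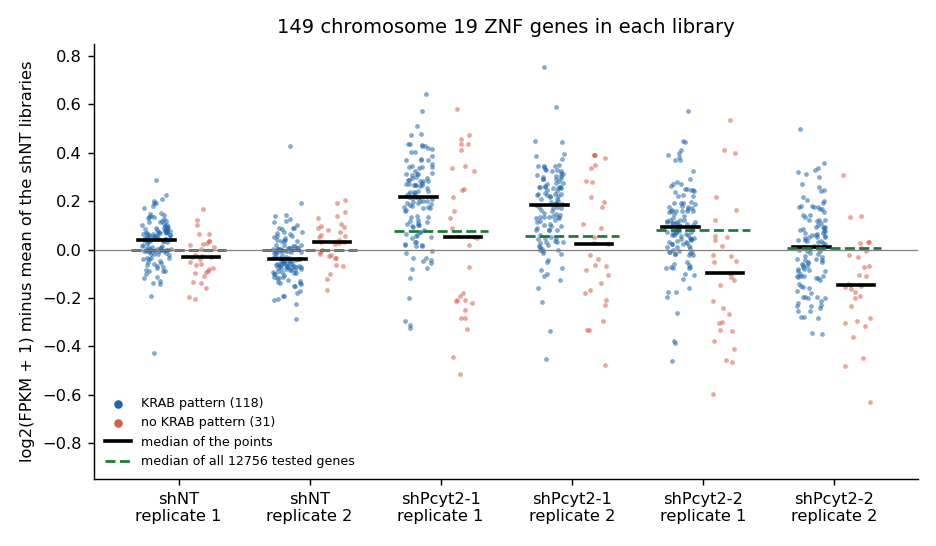
The 149 members in each of the 6 libraries, as log2(FPKM + 1) minus the gene's mean over the shNT libraries (y axis). Points are genes (blue with the KRAB pattern, red without), black bars are medians and dashed green lines are medians of all tested genes. The blue medians are highest in the shPcyt2-1 libraries (0.216 and 0.186) and the red medians lowest in the shPcyt2-2 libraries (-0.0976 and -0.145).

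The medians were also taken in each library. Relative to each gene's mean over the shNT libraries, the median of the members was 0.200 and 0.171 in the shPcyt2-1 libraries, 0.060 and -0.018 in the shPcyt2-2 libraries, and 0.027 and -0.027 in the shNT libraries. Both shPcyt2-1 libraries stood above the other 4. The median of all tested genes was 0.078 and 0.056 in the shPcyt2-1 libraries and 0.082 and 0.008 in the shPcyt2-2 libraries, so the first shPcyt2-2 library was as high as the shPcyt2-1 libraries for all genes but not for the members. The summed level hardly followed: it was 722.9 and 756.8 FPKM with shNT, 745.4 and 751.5 FPKM with shPcyt2-1, and 682.9 and 659.9 FPKM with shPcyt2-2. Among members with the KRAB pattern alone the sum was 211.9 and 197.7 FPKM with shNT, 250.4 and 246.4 FPKM with shPcyt2-1 and 226.3 and 206.3 FPKM with shPcyt2-2. For this sum the shPcyt2-1 libraries lay above all others, and the shPcyt2-2 and shNT libraries overlapped.

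Positive values with shPcyt2-1 were more frequent among the members with the KRAB pattern, a difference that is described here and was not tested. With shPcyt2-1 their median log2 fold change was 0.19 and 106 of 118 were positive (89.8%), with 12 called higher and 2 lower (11.9%, background 26.7%). Among the 31 members without the pattern the median was 0.041 and 17 were positive, with 6 called higher and 2 lower (25.8%, near the same background). The pattern went together with level: of the 121 members under 5 FPKM 109 were positive, and of the 28 at 5 FPKM or more 14 were. Within the members under 5 FPKM, those with the pattern had a median of 0.20 (101 of 112 positive) and those without 0.28 (8 of 9 positive). At 5 FPKM or more, those with the pattern had a median of 0.145 (5 of 6 positive) and those without -0.12 (9 of 22 positive). The 195 expressed ZNF genes of other chromosomes had a median of 0.066, with 126 positive, 15 called higher (background 16.5%) and 12 lower (background 10.1%). The 751 other protein-coding genes of chromosome 19 had a median of -0.074.

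On the log2(FPKM + 1) scale, the largest rises called with shPcyt2-1 were in ZNF559, ZNF260, ZNF460 and ZNF761. Their mean levels were 1.61, 2.46, 3.74 and 6.6 FPKM. ZNF559 (ENSG00000188321, chr19:9323772-9351162) was at 1.44 and 0.846 FPKM with shNT, 1.96 and 2.59 FPKM with shPcyt2-1 and 1.66 and 1.18 FPKM with shPcyt2-2. It rose with shPcyt2-1 by 0.62 on the log2 scale (SE 0.17, limma adjusted p = 0.0261). The gene overlaps the readthrough gene ZNF559-ZNF177 on the same strand, so its reads are uncertain. ZNF260, a zinc finger gene studied as a regulator in heart muscle, was at 1.97 and 1.89 FPKM with shNT, 3.39 and 2.84 FPKM with shPcyt2-1, and 2.87 and 1.79 FPKM with shPcyt2-2. It rose by 0.49 (SE 0.15, limma adjusted p = 0.0451), and its shPcyt2-2 libraries lay on both sides of the controls. ZNF460, whose promoter is printed above, was at 3.15 and 2.43 FPKM with shNT, 3.83 and 4.68 FPKM with shPcyt2-1 and 4.62 and 3.71 FPKM with shPcyt2-2. It rose by 0.47 with shPcyt2-1 (SE 0.14, limma adjusted p = 0.0359), and the value with shPcyt2-2, 0.45 (SE 0.14), did not pass (limma adjusted p = 0.0663). All 4 knockdown libraries of ZNF460 lay above both controls. ZNF761 rose by 0.43 (SE 0.13, limma adjusted p = 0.04), from 6.49 and 4.61 FPKM to 7.99 and 7.53 FPKM. Over 17 alternative settings, which include leaving out each library, the call of ZNF559 held under 13, that of ZNF460 under 11, that of ZNF260 under 8 and that of ZNF761 under 6. With the trend on GC content and length removed from each library, ZNF559 was at 0.51 and passed (limma adjusted p = 0.0417). ZNF260, ZNF460 and ZNF761 were then at 0.33, 0.40 and 0.30, and none of them passed (limma adjusted p = 0.116, 0.0585 and 0.0623).

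ZNF473 and ZNF30 rose with replicates close to each other. ZNF473 encodes a zinc finger protein of histone pre-mRNA processing. Its level was 5.78 and 5.45 FPKM with shNT, 8.08 and 7.66 FPKM with shPcyt2-1, and 5.49 and 5.73 FPKM with shPcyt2-2. The shPcyt2-2 libraries fell among the controls and the shPcyt2-1 libraries stood apart. The change with shPcyt2-1 was 0.42 (SE 0.090, limma adjusted p = 0.0106), and the difference of shPcyt2-2 from shPcyt2-1 was -0.42 (SE 0.090, limma adjusted p = 0.0089). ZNF473 overlaps VRK3 on the opposite strand, and whether the counting used strand is not stated. ZNF30 (ENSG00000168661, chr19:34926903-34945170), which overlaps no other gene, was at 1.83 and 1.86 FPKM with shNT, 2.85 and 2.72 FPKM with shPcyt2-1, and 1.86 and 1.61 FPKM with shPcyt2-2. It rose by 0.41 with shPcyt2-1 (SE 0.10, limma adjusted p = 0.0201), and the difference of shPcyt2-2 from shPcyt2-1 was -0.47 (SE 0.10, limma adjusted p = 0.0104). The call with shPcyt2-1 held under 15 of 17 alternative settings for ZNF473 and under 12 for ZNF30.

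**Figure D2:**
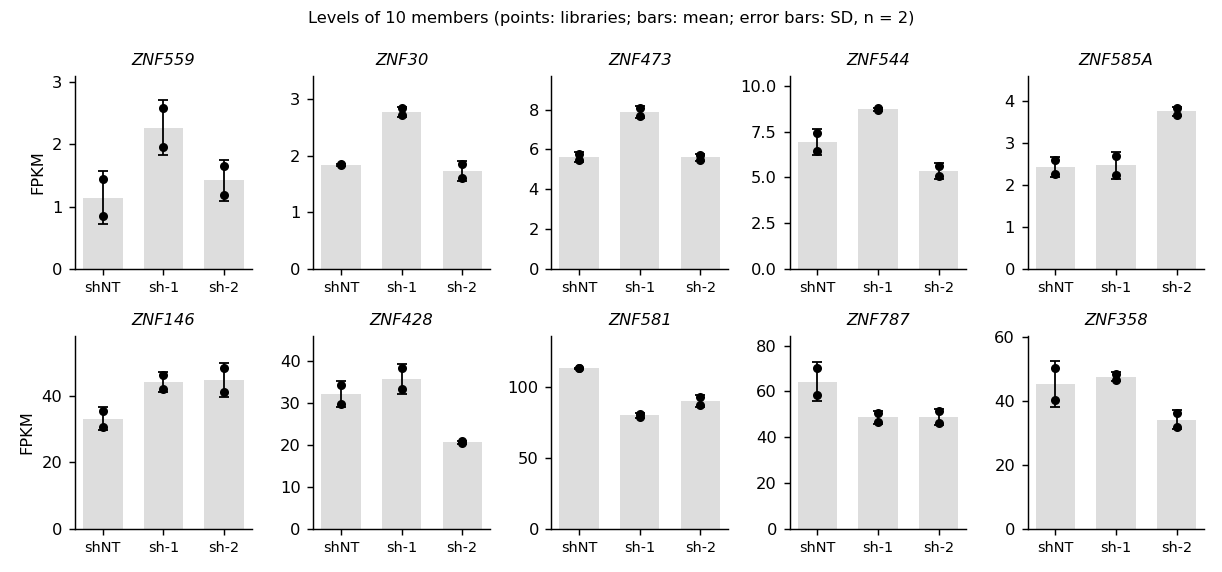
FPKM of 10 members in shNT, shPcyt2-1 (sh-1) and shPcyt2-2 (sh-2), with points for libraries, bars for means and error bars for SD (n = 2, each y axis from 0). ZNF559, ZNF30 and ZNF473 are highest with shPcyt2-1, ZNF585A with shPcyt2-2, ZNF146 is higher with both, and ZNF581 and ZNF787 are lower with both.

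The members that fell with shPcyt2-1 included the 2 most abundant. ZNF581 (ENSG00000171425, chr19:55635459-55645622) was at 113.0 FPKM in both shNT libraries, 78.9 and 81.1 FPKM with shPcyt2-1, and 86.9 and 92.8 FPKM with shPcyt2-2. It fell by 0.50 on the log2 scale with shPcyt2-1 (SE 0.060, limma adjusted p = 0.00126), a call that held under all 17 alternative settings, and by 0.33 with shPcyt2-2 (SE 0.060, limma adjusted p = 0.0124). The call with shPcyt2-2 held under 14 of these settings, with values from -0.386 to -0.202, and was lost without shPcyt2-2 replicate 1, among others. Each knockdown library was lower than the controls. ZNF581 overlaps ZNF580 and CCDC106 on the same strand, so the split of reads between them is uncertain. ZNF580 itself was at 41.7 and 54.9 FPKM with shNT, 51.1 and 55.1 FPKM with shPcyt2-1, and 40.4 and 38.6 FPKM with shPcyt2-2, so that its shPcyt2-1 and shNT libraries overlapped. ZNF787 was at 58.3 and 70.2 FPKM with shNT, 46.7 and 50.6 FPKM with shPcyt2-1, and 46.3 and 51.3 FPKM with shPcyt2-2. Each hairpin gave a log2 fold change of -0.39 (SE 0.095, limma adjusted p = 0.0184 and 0.0333). These calls held under 12 and 11 of 17 alternative settings, and both were lost without shNT replicate 2. The first was also lost without shPcyt2-1 replicate 1, and the second without either shPcyt2-2 library. With the trend on GC content and length removed from each library, the change of ZNF787 was -0.12 with shPcyt2-1 and -0.21 with shPcyt2-2, and neither passed (limma adjusted p = 0.146 and 0.0518). ZNF226, a KRAB gene of a cluster in which 12 of 14 members had positive values, went from 3.59 and 3.36 FPKM to 2.65 and 2.27 FPKM with shPcyt2-1 (log2 fold change -0.37, SE 0.12, limma adjusted p = 0.044). ZNF324 went from 8.34 and 8.58 FPKM to 6.61 and 6.49 FPKM (-0.32, SE 0.087, limma adjusted p = 0.025) and was at 8.68 and 8.01 FPKM with shPcyt2-2, on both sides of the controls. The call of ZNF324 with shPcyt2-1 held under 11 of 17 alternative settings and that of ZNF226 under 12, and both were lost without any 1 of the shNT or shPcyt2-1 libraries. With that trend removed, ZNF324 was at -0.20 (limma adjusted p = 0.0863).

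With shPcyt2-2, the median change of the members was close to 0, while their summed level lay below both controls in both libraries. The median log2 fold change was 0.031, against 0.044 for all tested genes. Positive values were found in 81 of 149 members (54.4%), against 58.1% of all tested genes. Both shPcyt2-2 libraries lay above both shNT libraries in 37 members (24.8%, background 35.1%) and below in 26 (17.4%, background 22.4%). By limma adjusted p under 0.05, 2 members were higher (background 7.69%) and 6 were lower (background 4.74%), in all 5.37% of the members against a background of 12.4%, or of 6.56% among tested genes under 5 FPKM. Without shPcyt2-2 replicate 1 limma called none of the members (13 had an unadjusted p under 0.05), without shPcyt2-2 replicate 2 it called 3, and without shNT replicate 2 it called 2. The members with the KRAB pattern had a median of 0.043 and the others -0.10, of which 24 were negative. The 2 comparisons share the shNT libraries, so their values stand side by side and are not independent.

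**Figure D3:**
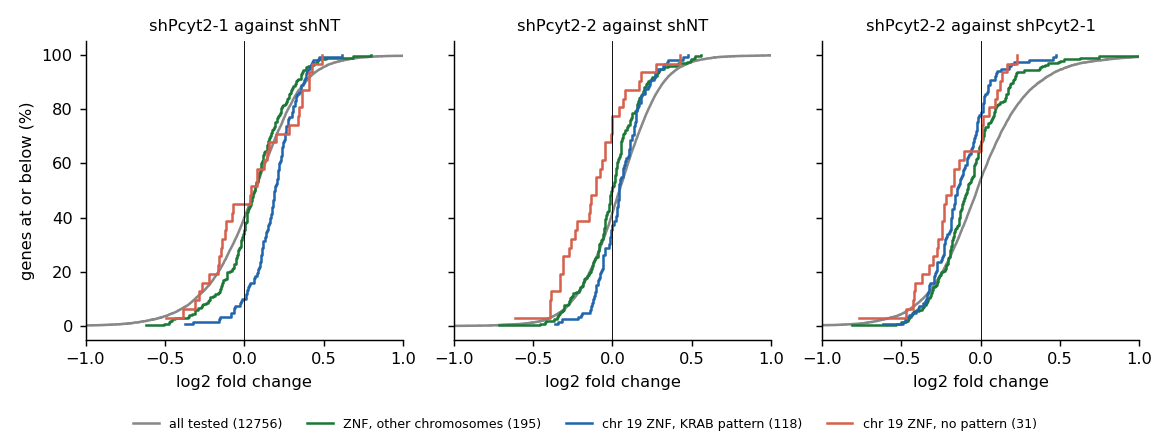
Cumulative share of genes (y axis, %) by log2 fold change (x axis, shown from -1 to 1) in 3 comparisons, the first 2 of which share the shNT libraries. The blue curve (KRAB pattern) lies, in the middle of its range, to the right of the grey curve (all tested genes) with shPcyt2-1, close to it with shPcyt2-2, and to its left for shPcyt2-2 against shPcyt2-1, with medians of 0.192, 0.0432 and -0.148.

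All 6 members that fell with shPcyt2-2 lacked the KRAB pattern, and all 6 were also at 50% GC or more and at 5 FPKM or more. ZNF428 (ENSG00000131116, chr19:43607219-43619874) had the largest of these changes on the log2(FPKM + 1) scale. Its level was 29.9 and 34.4 FPKM with shNT, 38.4 and 33.4 FPKM with shPcyt2-1, and 20.9 and 20.4 FPKM with shPcyt2-2. The shPcyt2-2 libraries stood below all others, and the shPcyt2-1 libraries overlapped the controls. It had a log2 fold change of -0.61 against shNT (SE 0.092, limma adjusted p = 0.00683) and -0.77 against shPcyt2-1 (SE 0.092, limma adjusted p = 0.000677). ZNF428 overlaps SRRM5 on the opposite strand. ZNF358 was at 40.2 and 50.2 FPKM with shNT, 46.4 and 48.5 FPKM with shPcyt2-1 and 36.2 and 31.9 FPKM with shPcyt2-2. It fell by 0.39 against shNT (SE 0.11, limma adjusted p = 0.0425). ZNF837 fell by 0.39 (SE 0.097, limma adjusted p = 0.0333), from 7.14 and 8.09 FPKM to 5.81 and 5.31 FPKM, and ZNF524 fell by 0.31 (SE 0.087, limma adjusted p = 0.048), from 35.9 and 39.9 FPKM to 29.9 and 30.7 FPKM. With shPcyt2-1 their values were -0.29 and -0.14, which did not pass. Over 17 alternative settings the call held under 15 for ZNF428 and under 9 each for ZNF358, ZNF837 and ZNF524. Without the trend on GC content and length, the changes of the last 3 were -0.20, -0.20 and -0.14, and none passed (limma adjusted p = 0.158, 0.155 and 0.207).

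ZNF585A and ZNF146 were the 2 members that rose with shPcyt2-2. ZNF585A, a KRAB gene with 21 finger patterns, was at 2.59 and 2.26 FPKM with shNT, 2.7 and 2.24 FPKM with shPcyt2-1 and 3.68 and 3.83 FPKM with shPcyt2-2. It rose by 0.47 against shNT (SE 0.11, limma adjusted p = 0.0282) and by 0.46 against shPcyt2-1 (SE 0.11, limma adjusted p = 0.0159). ZNF146, whose protein consists almost only of zinc fingers, was at 35.6 and 30.8 FPKM with shNT, 46.3 and 42.1 FPKM with shPcyt2-1 and 48.4 and 41.2 FPKM with shPcyt2-2. All 4 knockdown libraries lay above the controls. It was called higher with each hairpin, by 0.41 with shPcyt2-1 (SE 0.099, limma adjusted p = 0.0182) and 0.42 with shPcyt2-2 (SE 0.099, limma adjusted p = 0.0282). The call of ZNF585A against shNT held under 12 of 17 alternative settings and was lost without shNT replicate 2 and without either shPcyt2-2 library. Its call against shPcyt2-1 held under 13 and was lost without shPcyt2-1 replicate 2 and without either shPcyt2-2 library. Those of ZNF146 held under 14 with shPcyt2-1 and 13 with shPcyt2-2, and both were lost without shNT replicate 2 and without replicate 1 of the hairpin concerned. ZNF146 and ZNF585A lie in the same cluster.

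Between the hairpins, most members had lower values with shPcyt2-2, and few of them passed the test. The values of shPcyt2-2 against shPcyt2-1 do not use shNT, although the variance in the test does. The median of the members was -0.16, against -0.023 for all tested genes. Negative values were found in 112 of 149 members (75.2%), against 54.0% of all tested genes. Both shPcyt2-2 libraries lay below both shPcyt2-1 libraries in 77 members (51.7%, background 36.5%) and above in 16 (10.7%, background 30.7%). By limma adjusted p under 0.05, 18 members were lower (background 14.2%) and 2 higher (background 12.9%), in all 13.4% of the members against a background of 27.1%, or of 20.6% among tested genes under 5 FPKM. Leaving out shPcyt2-1 replicate 1 gave 6 calls, leaving out its replicate 2 gave 9, and leaving out shPcyt2-2 replicate 2 gave 3. With and without the KRAB pattern the medians were -0.15 and -0.18. The 195 ZNF genes of other chromosomes had a median of -0.085, with 19 called lower and 11 higher, and the 751 other genes of chromosome 19 had one of -0.021.

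Among members with the KRAB pattern 13 of 118 were called between the hairpins, and among those without it 7 of 31 (22.6%), both below the background of 27.1%. After ZNF428, the largest called differences were in ZNF544, ZNF587B and ZNF561, which carry the pattern, with ZNF30 and ZNF358 close behind. ZNF544 was at 7.42 and 6.42 FPKM with shNT, 8.65 and 8.78 FPKM with shPcyt2-1, and 5.05 and 5.64 FPKM with shPcyt2-2. The controls lay between the hairpins, with values of 0.30 and -0.32 that did not pass against shNT, and the difference between the hairpins was -0.62 (SE 0.10, limma adjusted p = 0.00266). ZNF587B, at 2.92 and 2.68 FPKM with shPcyt2-1 and 1.8 and 1.61 FPKM with shPcyt2-2, had a difference of -0.49 (SE 0.11, limma adjusted p = 0.00979). ZNF561 was at 4.44 and 4.27 FPKM with shPcyt2-1 and 3.26 and 2.49 FPKM with shPcyt2-2, a difference of -0.47 (SE 0.12, limma adjusted p = 0.0172). The call between the hairpins held under all 17 alternative settings for ZNF428 and ZNF544, under 15 for ZNF587B and under 13 for ZNF561. In ZNF587B and ZNF561 the shPcyt2-2 libraries overlapped the controls. ZNF274, which is known to bring a histone methyltransferase to the ends of zinc finger genes, was at 7.03 and 7.12 FPKM with shNT, 7.04 and 8.45 FPKM with shPcyt2-1 and 6.15 and 5.78 FPKM with shPcyt2-2. Its difference between the hairpins was -0.32 (SE 0.10, limma adjusted p = 0.044), and neither hairpin passed against shNT. This call held under 10 of 17 alternative settings and was lost on leaving out any library but shPcyt2-1 replicate 1, with values from -0.44 to -0.21 over all settings and an adjusted p of up to 0.336.

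When the 4 knockdown libraries were pooled against shNT, none of the 149 members was called by limma, as against 1 of 12756 genes (background 0.00784%), and 12 had an unadjusted p under 0.05. The median was 0.11, against 0.053 for all tested genes, and 113 members were positive (75.8%, against 60.5% of all tested genes). With the mean of the hairpins taken from the fit with 3 groups, 9 members were called (6.04%, background 16.8%), 5 higher (background 10.9%) and 4 lower (background 5.85%).

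Along the chromosome, the members fell into 17 groups of annotated ZNF genes under 500 kb apart, of which 12 held 2 or more members and 5 held 1. Of the 12, which are called clusters here, 10 had a positive median with shPcyt2-1 and 7 with shPcyt2-2, with no test. Spans are those of the annotated ZNF genes, which reach beyond the members in some clusters. Of all tested genes, 59.8% were positive with shPcyt2-1 and 58.1% with shPcyt2-2, and 54.0% were negative between the hairpins. In the cluster with members from ZNF565 to ZNF573 (span chr19:36182060-37817300, median GC 39.4%) all 15 members were positive with shPcyt2-1 and 11 with shPcyt2-2. In the cluster with members from ZNF175 to ZNF813 (span chr19:51571298-53580269, 40.9%) 25 of 27 members were positive with shPcyt2-1 and 20 with shPcyt2-2, though only ZNF761 was called. In the cluster with members from ZNF805 to ZNF446 (span chr19:57191500-58481230, 46.2%) 22 of 29 members were positive with shPcyt2-1 and 11 with shPcyt2-2, and 26 were negative between the hairpins. The cluster with members from ZNF628 to ZNF71 (span chr19:55476332-56671783) differed: its 11 members had a median GC of 64.8% and a median level of 15.5 FPKM, only 2 carried the KRAB pattern, and its medians were -0.14 with shPcyt2-1 and -0.15 with shPcyt2-2. Adjacent members differed somewhat less than pairs of members in general, which was not tested. The median absolute difference in log2 fold change between adjacent members of a cluster was 0.157 with shPcyt2-1 (132 pairs), against 0.169 over all 11026 pairs, 0.124 against 0.161 with shPcyt2-2, and 0.163 against 0.177 between the hairpins.

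**Figure D4:**
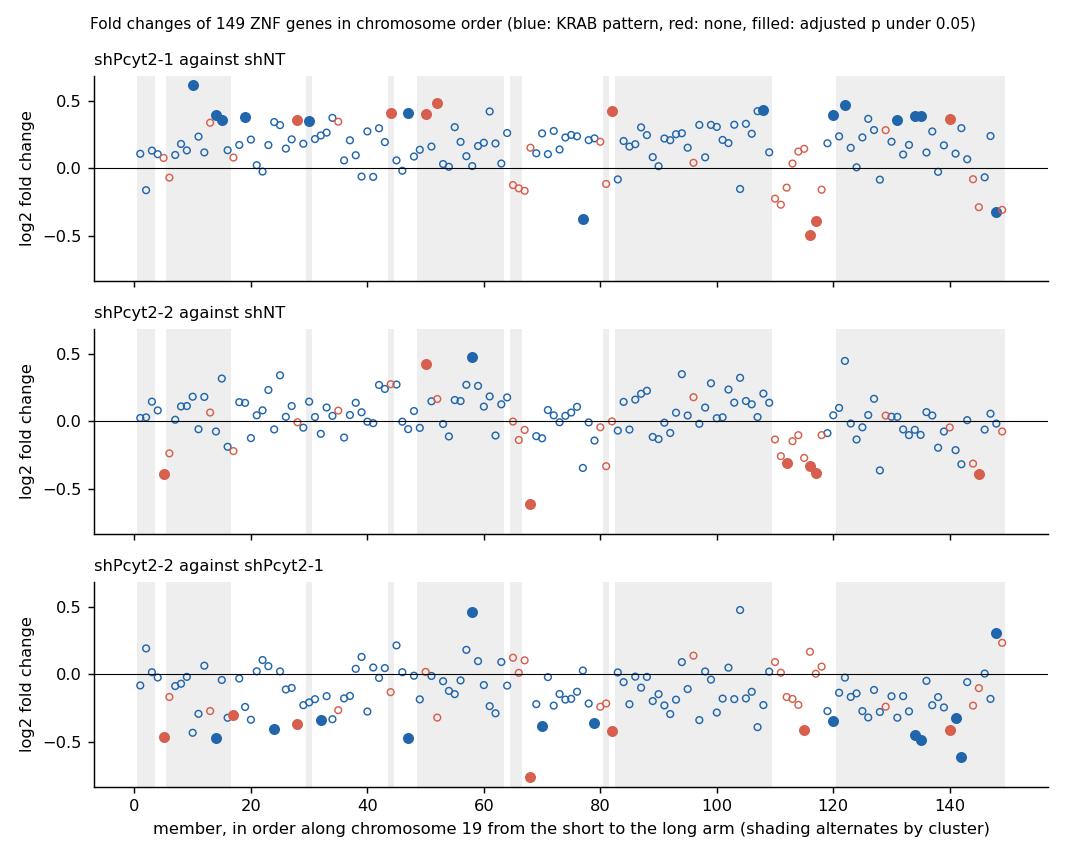
Log2 fold changes (y axis) of the 149 members in order along chromosome 19 (x axis) in 3 comparisons, blue with the KRAB pattern and red without, filled where the limma adjusted p was under 0.05. Shading alternates by cluster, and the mostly red cluster toward the right, from ZNF628 to ZNF71, has medians of -0.143 with shPcyt2-1 and -0.148 with shPcyt2-2.

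GC content of the transcript moved with the change. Across the 149 members the correlation of GC content with the log2 fold change was r = -0.502 (Spearman rho -0.301) with shPcyt2-1 and r = -0.613 (rho -0.558) with shPcyt2-2, and r = -0.0702 (rho -0.166) between the hairpins. These are descriptions across genes that share libraries. Over 12739 tested genes with a GC value, r was -0.397, -0.42 and 0.0452. Of the 121 members under 50% GC, 111 were positive with shPcyt2-1 (median 0.21), against 2122 of the 2910 tested genes under 50% GC and under 5 FPKM (median 0.15). With shPcyt2-2 the same members had a median of 0.044, against 0.105 in those genes, and between the hairpins -0.16 against -0.035. The 121 members were not limited by level. Over all 6515 tested genes under 50% GC, the medians were 0.161 with shPcyt2-1, 0.132 with shPcyt2-2 and -0.0259 between the hairpins. With the trend on GC content and length removed from each library, the median of the members was 0.097 with shPcyt2-1 (0.062 for all tested genes), -0.037 with shPcyt2-2 (0.040 for all tested genes) and -0.14 between the hairpins (-0.024). What part GC content has in these values was not tested beyond this.

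**Figure D5:**
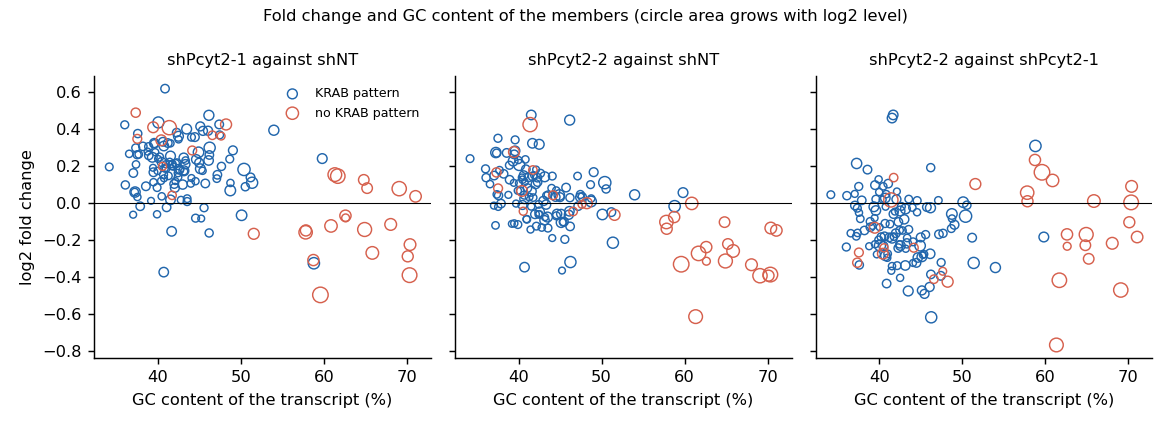
Log2 fold change (y axis) against GC content of the transcript in percent (x axis) for the 149 members in 3 comparisons, blue with the KRAB pattern and red without, with larger circles for higher levels. The members above 55% GC are mostly red and lie mostly below 0 with both hairpins (r = -0.502 and -0.613), and no such slope is seen between the hairpins (r = -0.0702).

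Other members with a function known from earlier work were not called against shNT. ZNF91, which silences SVA retrotransposons in human cells, was at 0.686 and 0.534 FPKM with shNT, 0.527 and 0.551 FPKM with shPcyt2-1 and 0.634 and 0.552 FPKM with shPcyt2-2, and each hairpin overlapped the controls. ZNF675, an inhibitor of TRAF6 signaling, was at 1.0 and 0.756 FPKM with shNT, 1.3 and 1.31 FPKM with shPcyt2-1, and 1.19 and 1.33 FPKM with shPcyt2-2. All 4 knockdown libraries lay above the controls, but neither hairpin passed (limma adjusted p = 0.0796 and 0.14). ZNF224, a repressor of the aldolase A gene, ZNF350, a partner of BRCA1, and ZNF808, which binds retroviral repeats, were at 0.823 to 1.58 FPKM in all libraries, and none passed in any of the 3 comparisons. ZNF93 and ZNF154 were listed below the limit, and ZNF304, ZNF382 and ZNF85 were not analysed here.

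The partners of KRAB zinc finger proteins were examined from a fixed list of 27 corepressor and chromatin genes, all of which were tested. With shPcyt2-1, 6 were higher and 2 lower (8 of 27, 29.6%, background 26.7%), and the median was 0.12. Leaving out shNT replicate 2 gave 5 calls, leaving out shPcyt2-1 replicate 1 gave 2 and leaving out its replicate 2 gave 3. TRIM28, the protein that the KRAB box binds, was at 272.0 and 304.0 FPKM with shNT, 235.0 and 247.0 FPKM with shPcyt2-1, and 253.0 and 250.0 FPKM with shPcyt2-2. It fell by 0.26 with shPcyt2-1 (SE 0.065, limma adjusted p = 0.021), and its value of -0.20 with shPcyt2-2 did not pass (limma adjusted p = 0.0793). All 4 knockdown libraries lay below the controls. With the trend on GC content and length removed, the change with shPcyt2-1 was -0.069 (limma adjusted p = 0.274). The TRIM28 call held under 10 of 17 alternative settings and was lost without shNT replicate 2 and without either shPcyt2-1 library. CHD4, a helicase of the NuRD deacetylase complex, was at 70.5 FPKM in both shNT libraries and 59.5 and 57.8 FPKM with shPcyt2-1, and at 83.4 and 78.2 FPKM with shPcyt2-2. It fell by 0.26 with shPcyt2-1 (SE 0.061, limma adjusted p = 0.0156), and shPcyt2-2 was higher than shPcyt2-1 by 0.45 (SE 0.061, limma adjusted p = 0.00113). The first of these CHD4 calls held under 15 of 17 alternative settings and was lost without either shPcyt2-1 library. The second held under all 17.

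Of the 6 that rose with shPcyt2-1, UHRF1, which guides maintenance methylation of DNA, changed most, from 11.1 and 12.6 FPKM to 18.2 and 17.4 FPKM (log2 fold change 0.55, SE 0.093, limma adjusted p = 0.00432). It was at 13.4 and 11.7 FPKM with shPcyt2-2, which overlapped the controls. CBX1, a heterochromatin protein, rose with both hairpins, by 0.50 (SE 0.074, limma adjusted p = 0.00278) and 0.28 (SE 0.074, limma adjusted p = 0.043), and its relative CBX3 rose with shPcyt2-2 by 0.49 (SE 0.10, limma adjusted p = 0.0191). The CBX1 call held under all 17 alternative settings with shPcyt2-1 and under 9 with shPcyt2-2, and that of CBX3 under 14. The CBX1 call with shPcyt2-2 was lost on leaving out any library but shNT replicate 1. The histone methyltransferase genes SUV39H1 and SUV39H2, the HUSH complex gene PPHLN1 and the deacetylase gene HDAC1 rose with shPcyt2-1 by 0.35, 0.49, 0.37 and 0.24. Their limma adjusted p was 0.0153, 0.00963, 0.0142 and 0.0274. These calls held under 14, 16, 13 and 11 of 17 alternative settings, and each was lost without shPcyt2-1 replicate 1. That of HDAC1 was also lost with median-ratio scaling. SETDB1, the methyltransferase that works with TRIM28, was at 6.86 to 7.8 FPKM in all libraries and did not pass in any comparison. With shPcyt2-2, 2 of 27 were higher and none lower (7.41%, background 12.4%), and none was called by limma without shNT replicate 2 or without shPcyt2-2 replicate 1 (5 and 3 had an unadjusted p under 0.05). Between the hairpins 3 were higher and 2 lower (18.5%, background 27.1%). Without either shPcyt2-1 library or without shPcyt2-2 replicate 1, 2 were called in place of 5. In the pooled comparison limma called none of the 27, and 8 had an unadjusted p under 0.05.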

How the data were processed

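RNA-Seq of SW480 cells was analyzed in 6 libraries, 2 each with shNT, shPcyt2-1 and shPcyt2-2. The authors deposited 1 table per library of values per Ensembl identifier, read here as FPKM because they are fractional and only values above 0 are listed. TPM over part of the genes is possible. The labels name 2 library kits without assigning them to libraries and, in the submitters' processing notes, GRCh38, GRCm38 and mm10. The aligner and annotation are not given in the sources used here. The study's methods name a count-based test, and the values are not counts, so limma was used, as the design had foreseen.

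Rows of identifiers listed more than once (115 of 21539) were added up, and identifiers with the same values in every library, at least 3 of them above 0, were joined into 1 gene (999 groups), which left 19746 genes. Unlisted values were set to 0. The 12756 genes with a mean of at least 0.5 FPKM were fitted on log2(FPKM + 1) by limma (version 3.58.1, R 4.3.3) with 3 groups (2 for the pooled comparison), variances shrunk toward a trend on the mean, and Benjamini-Hochberg adjustment over all of them, at a threshold of 0.05. The fits were also run on simulated data as a check of the code, and no call here rests on that run. Names, positions, GC content and coding sequences came from GENCODE 29, and 3 members share merged identifiers.

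The members and lists were chosen with earlier results of these data known. Named are, per comparison of single groups, up to 6 higher and 6 lower called members of largest change, the 5 most abundant, the 2 genes on each side of the limit, members of known role, PCYT2, and genes of the corepressor and marker lists. Of the members, 64 overlap another gene on the same strand and 76 on the opposite strand. Overlaps are named above for only some members, and ZNF761, ZNF358 and ZNF585A, among others, also overlap a gene on the same strand. Paralogs can also share reads, so single values are uncertain. Figures were drawn with matplotlib 3.10.9.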

Additional observations from a re-analysis of the deposited data

Results flagged for a closer look

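The difference between the hairpins passed its own limma test (adjusted p under 0.05 over all tested genes, 2 libraries per group) in 20 of the 149 members, 2 higher and 18 lower with shPcyt2-2 than with shPcyt2-1, beside 27.1% of all tested genes. Among the named members, the log2 fold change of shPcyt2-2 against shPcyt2-1 was lower in ZNF428 (-0.77), ZNF544 (-0.62), ZNF587B (-0.49), ZNF561 (-0.47), ZNF30 (-0.47), ZNF358 (-0.47), ZNF473 (-0.42), ZNF580 (-0.42) and ZNF274 (-0.32), and higher in ZNF585A (0.46) and ZNF324 (0.31). Of the corepressor list, ATRX (0.49), CHD4 (0.45) and MPHOSPH8 (0.40) were higher and UHRF1 (-0.48) and EHMT1 (-0.34) lower with shPcyt2-2 than with shPcyt2-1. Over 17 alternative settings these calls held under 12 for ATRX, 17 for CHD4, 13 for MPHOSPH8, 16 for UHRF1 and 12 for EHMT1. That of EHMT1 was lost on leaving out any library of either PCYT2 hairpin. Among the members, the call of ZNF324 between the hairpins held under 13 settings and was lost on leaving out any of the same libraries. That of ZNF580 held under 12 and was lost without shPcyt2-1 replicate 2 and without either shPcyt2-2 library. The calls of ZNF473, ZNF30 and ZNF358 held under 16, 15 and 15. The level of PCYT2 did not differ between the hairpins beyond the test's threshold (-0.15, limma adjusted p = 0.309), which does not show that it was the same.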

How the results depend on the processing

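Alternatives changed the scaling, the pseudocount, the variance model, the limit on low genes, the libraries used, the block, the handling of repeated rows, or the GC content and length trend. The values hold no counts, so edgeR and DESeq2 were left out. The named calls of members numbered 32, and none changed direction under any alternative. Without 1 library in turn 3 of them held throughout, and under all other settings 8. With no expression limit, the members called were 3 with shPcyt2-1, 0 with shPcyt2-2 (22 with an unadjusted p under 0.05) and 10 between the hairpins, and the corepressor genes called were 0 with shPcyt2-2 and 2 between the hairpins. The cause was not tested. Members called without 1 library ranged from 2 to 23 with shPcyt2-1, from 0 to 12 with shPcyt2-2 and from 3 to 19 between the hairpins, and were 0 in the pooled comparison. Corepressor genes ranged from 2 to 8, from 0 to 3 and from 2 to 7, and were 0 when pooled. With the mean of the hairpins from the fit with 3 groups, 9 members and 8 corepressor genes were called where pooling gave 0. Without the variance trend, 5 members and 1 corepressor gene were called with shPcyt2-2. With median-ratio scaling 1 corepressor gene was called with shPcyt2-2, and with robust variances 4.

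The median of the members moved away from 0 with a smaller pseudocount, by construction of the scale: with 0.1 it was 0.309 with shPcyt2-1, -0.239 between the hairpins and 0.182 when pooled, and with 0.5 it was 0.241 with shPcyt2-1. It was 0.136 with shPcyt2-1 after median-ratio scaling. With the trend on GC content and length removed it was 0.097 with shPcyt2-1, -0.0367 with shPcyt2-2 and 0.0276 when pooled, and the corepressor genes called were 4 with shPcyt2-2 and 9 between the hairpins. Without 1 library in turn the median lay between 0.163 and 0.206 with shPcyt2-1, between -0.0179 and 0.0603 with shPcyt2-2, between -0.182 and -0.107 between the hairpins, and between 0.0789 and 0.149 when pooled.

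Same-numbered libraries were compared in their deviations from the group means. The correlation was r = 0.0027 for shNT and shPcyt2-1, 0.0619 for shNT and shPcyt2-2, and 0.191 for shPcyt2-1 and shPcyt2-2. The numbers were not taken as pairs in the main fit, and whether they mark a shared batch is not known. With the replicate block, 31 members were called with shPcyt2-1, 8 with shPcyt2-2, 21 between the hairpins and 0 when pooled, and 5 and 8 corepressor genes with shPcyt2-2 and between the hairpins. With the replicate block and the GC content and length trend removed, 13 members were called with shPcyt2-1 and 3 with shPcyt2-2, 9 corepressor genes between the hairpins, and the medians were 0.097, -0.0367 and 0.0276 with shPcyt2-1, with shPcyt2-2 and when pooled. The depth in reads is unknown, and the low level of most members limits what single genes can show.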
